A study of Mus musculus with 20 samples.

Results

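The 39 protein-coding mouse genes described here move calcium ions across the plasma membrane or the membrane of the endoplasmic reticulum (ER), or regulate the channels that do. Membership was set by symbol alone, although the set was chosen with earlier results of these data known. The genes comprise 7 high-voltage and 3 low-voltage pore subunits (Cacna1), 4 alpha2delta subunits (Cacna2d), 4 beta subunits (Cacnb), 3 ryanodine receptors (Ryr), 3 IP3 receptors (Itpr), 3 ER pumps (Atp2a), 4 plasma-membrane pumps (Atp2b), 3 sodium/calcium exchangers (Slc8a) and 5 genes of store-operated entry (Stim and Orai). Measured values came from whole-brain RNA of male C57BL/6J mice, at P21 (3 weeks) or P70 (10 weeks), either WT or Katnal2-KO, with 5 mice in each of the 4 groups and 20 in all. The KO allele was derived from the EUCOMM tm1a allele, was recombined by Flp in the germ line of a Protamine-Flp parent, and then lost exon 3 when embryos at the two-cell stage were treated with HTNC, a cell-permeable Cre, so that the deletion was not restricted to a cell type. All 39 genes were among the 19463 genes of the deposited table. The comparisons ask how the genes differed between KO and WT mice at each age, how they changed from P21 to P70 within each genotype, and whether that change differed between genotypes.

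Voltage-gated calcium channels open when a neuron is depolarised, and the calcium that enters triggers transmitter release, firing patterns and gene transcription. Alpha2delta and beta subunits bring the pore subunit to the surface and tune its gating, IP3 and ryanodine receptors release calcium from the ER, and pumps and exchangers return cytosolic calcium to its low resting level. When the ER is depleted, Stim proteins in the ER membrane sense the loss and open Orai channels in the plasma membrane.

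Values are counts normalized by the authors and sum to nearly the same total in each mouse, and the depths estimated from them were 26100000 to 35600000 reads at P21 and 23300000 to 27900000 at P70. Katnal2, the targeted gene, had 99.3 to 115 normalized counts in P21 WT and 78.1 to 96 in P21 KO mice, without overlap, and 101 to 141 in P70 WT against 95.1 to 125 in P70 KO mice, which overlap. These are values of the whole gene and do not isolate the deleted exon. Markers of neurons, oligodendrocytes, astrocytes, microglia and choroid plexus (Snap25, Mbp, Slc1a2, Cx3cr1 and Ttr) were all above 0 in each group. Such RNA does not tell fewer cells of a type from less RNA per cell. Mice are numbered by the replicate number in their labels, which names a mouse within its group; the labels do not say that a number marks a shared litter, batch or day.

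A pair of mice at each age stood apart in a way that bears on long genes. In P70 mice 5 of both genotypes, protein-coding genes whose exons together span 10 kb or more lay below the other mice of the group, with a median difference of -0.33 in WT and -0.44 in KO on the log2 scale, while those under 2 kb lay above, at 0.36 and 0.38. P21 mice 3 departed in the same direction, with medians of -0.19 for the long and 0.21 for the short genes in WT and -0.16 and 0.21 in KO. The 39 genes are long, with a median exon span of 9763 bases against 4453 for protein-coding genes in general, and 17 of them reach 10 kb. In P70 WT mouse 5, 20 of the 39 lay below and 12 above all of the other 4 mice, and in P70 KO mouse 5, 20 lay below and 13 above, with 18 below and 10 above in both. Length did not order them fully: Cacnb4, with 8963 exonic bases, had the lowest departure of the moderately to highly expressed members in KO mouse 5, at -1.38, and Cacna1a, with 11418, lay above the other mice, by 0.21. Age results below are given without the P70 mice 5 as well where the call or the direction differs, and the part that RNA quality or library preparation had in the departure was not tested.

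**Figure D1:**
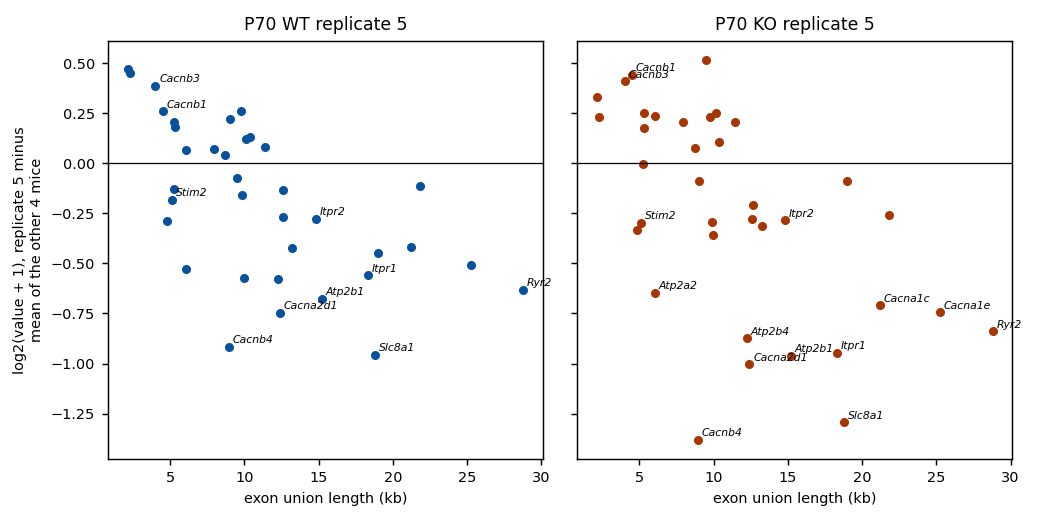
Difference between P70 mouse 5 and the mean of the other 4 P70 mice of its genotype, on the log2(value + 1) scale (vertical axis), against exon span in kb (horizontal axis), for the 36 members with a P70 WT mean of at least 100, with WT on the left and KO on the right. Points under 0 are members lower in mouse 5; Slc8a1 (-0.96 in WT and -1.29 in KO) and Cacnb4 (-0.92 and -1.38) lie lowest in both panels.

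From P21 to P70, Stim2 rose while Itpr2 and Cacna2d3 fell, in WT and in KO mice alike, and these were the only members that passed the test in both genotypes. Stim2, an ER calcium sensor, went from a mean of 1219.8 ± 79.6 to 1648 ± 128 normalized counts in WT mice (SD, n = 5 each) and from 1255 ± 79.4 to 1755 ± 174 in KO mice. Itpr2, an IP3 receptor known from glia, fell from 1104 ± 147 to 768 ± 72.9 in WT and from 1229.8 ± 121 to 684 ± 58.6 in KO mice. Cacna2d3, an alpha2delta subunit, fell from 3201 ± 104 to 2549 ± 109.6 in WT and from 3033 ± 86.1 to 2499 ± 145 in KO mice. For each of these 3 genes the P21 and P70 values did not overlap in either genotype.

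By limma with Benjamini-Hochberg adjustment over all genes tested, 5 of the 39 members passed an adjusted p of 0.05 in WT mice, 3 higher at P70 (Stim2, Itpr1 and Atp2b2) and 2 lower (Itpr2 and Cacna2d3). Of all 17630 genes tested there, 9.32% passed, 4.62% higher and 4.7% lower, so the members' share was near the background. In KO mice 4 members passed, 2 higher (Stim2 and Cacnb3) and 2 lower (Itpr2 and Cacna2d3), against 8.32% of 17641 genes (3.78% higher and 4.53% lower). The P21 and P70 values of 5 members did not overlap in WT mice (Cacnb1 and Stim2 higher at P70, Cacna2d3, Itpr2 and Slc8a2 lower), and those of 6 did not in KO mice (Cacnb1, Cacnb3 and Stim2 higher, Cacna2d3, Itpr2 and Orai2 lower), beside 10.8% and 10.9% of all genes tested. The median change of the members was -0.030 in WT and -0.071 in KO mice on the log2(value + 1) scale, against 0.0015 and -0.010 over all genes. Quantile normalization also left 5 members in WT and 4 in KO mice but moved the split, to 1 higher and 4 lower in WT and 1 higher and 3 lower in KO mice. Over all genes, 810 were then higher and 857 lower in WT, and 712 higher and 794 lower in KO mice. Without the P70 mice 5, 9 members passed in WT (Cacna1d, Cacnb4, Ryr2 and Slc8a2 in addition) and 11 in KO mice (Cacna2d4, Cacnb1, Itpr1, Atp2a3, Atp2b2, Slc8a2 and Orai2 in addition), when 17% and 21.3% of all genes did. Without the P21 mice 3, the members past the threshold were 1 higher and 3 lower in WT, among 1231 genes that passed, and 1 higher and 3 lower in KO mice, among 1156 genes. Itpr1 (adjusted p = 0.0748) and Atp2b2 (adjusted p = 0.0827) in WT and Cacnb3 (adjusted p = 0.0697) in KO mice were then no longer past it. At an unadjusted p under 0.05, 11 members passed in WT and 11 in KO mice, beside 24.5% and 22.7% of all genes. The ages also differed in estimated depth, as given above, and whether libraries of both ages were prepared together is not given in the sources used here, so age and library batch cannot be told apart.

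**Figure D2:**
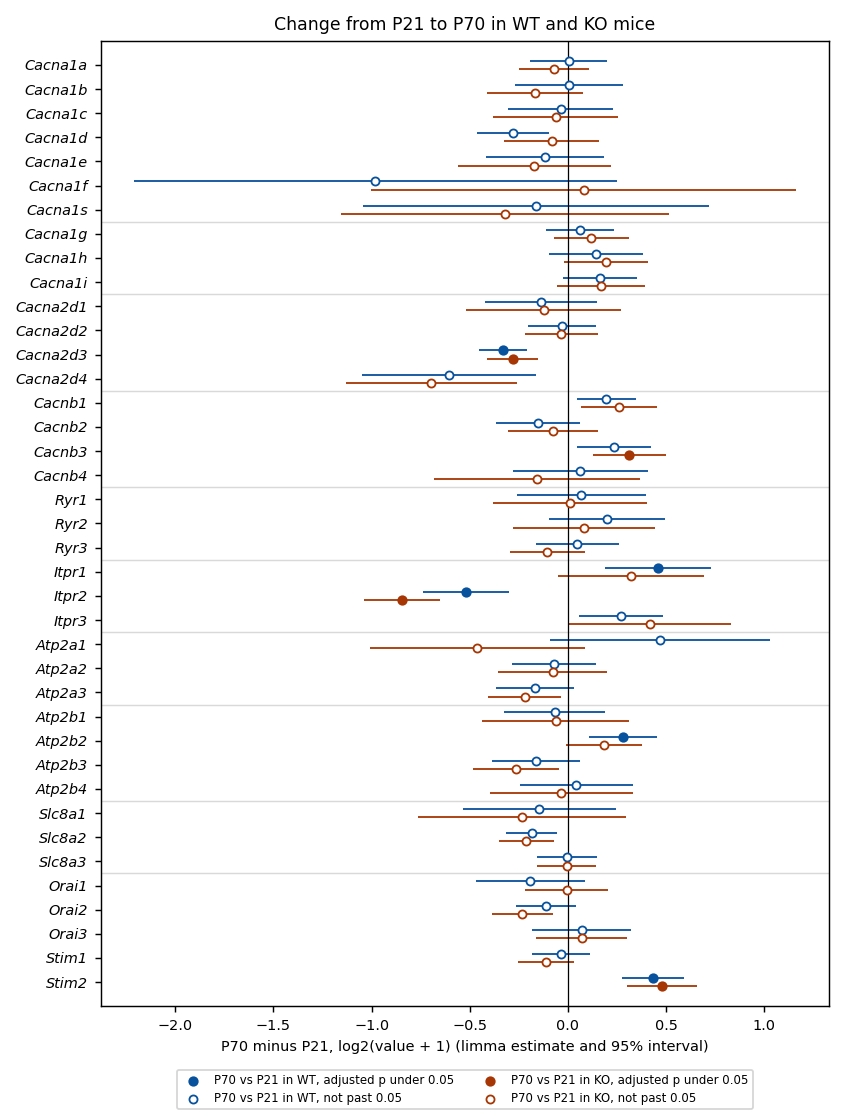
Change from P21 to P70 of each member, as P70 minus P21 on the log2(value + 1) scale (horizontal axis, limma estimate with its 95% interval), in WT (blue) and KO mice (brown), with members grouped by role from top to bottom. Filled points passed an adjusted p of 0.05: Itpr2 lies farthest to the left of them, at -0.52 in WT and -0.84 in KO mice, and Stim2 among the farthest to the right, at 0.43 and 0.48.

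**Figure D3:**
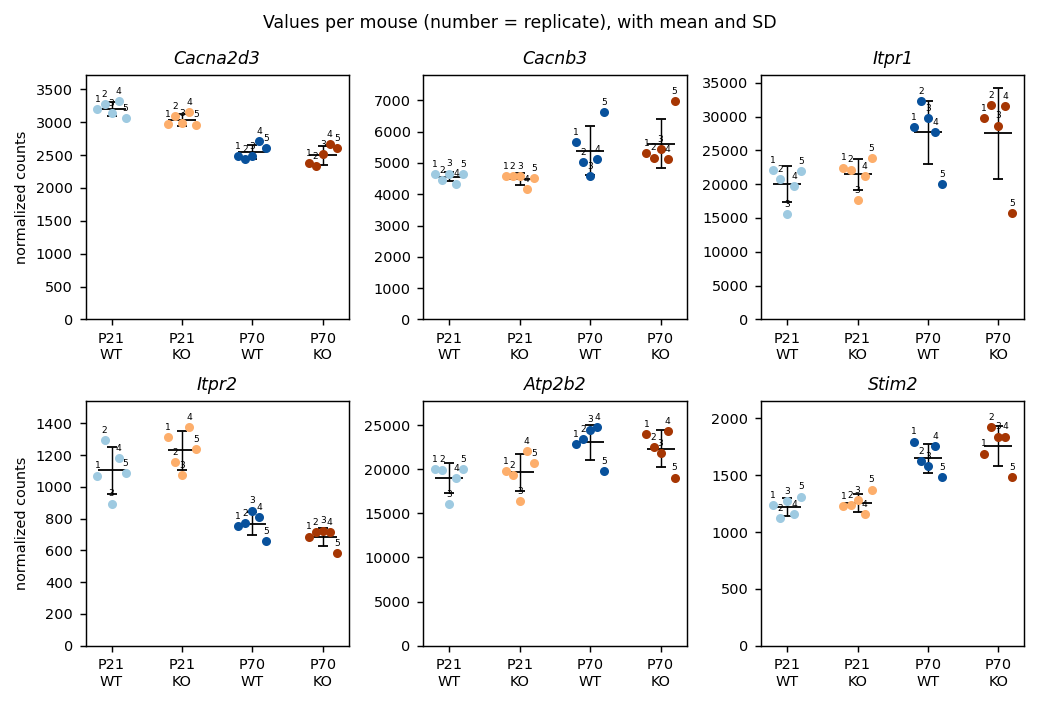
Normalized counts (vertical axes, from 0) of the 6 members that passed in WT or KO mice, with 1 point per mouse, its replicate number above it, and the group mean and SD (n = 5) as a bar. The P21 and P70 points of Cacna2d3, Itpr2 and Stim2 separate in both genotypes, while P70 mouse 5 lies far below the other P70 mice for Itpr1 (20036 in WT and 15777 in KO).

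Because Stim2, Itpr2 and Cacna2d3 passed in both genotypes, the sequence just upstream of each gene's start is shown. It is from RefSeq (GRCm38.p6), reads 5′ to 3′ in the direction of the gene, and has GC boxes (GGGCGG or its reverse complement) in capitals.
Stim2 (chr5:53998273-53998498, plus strand, 226 bases): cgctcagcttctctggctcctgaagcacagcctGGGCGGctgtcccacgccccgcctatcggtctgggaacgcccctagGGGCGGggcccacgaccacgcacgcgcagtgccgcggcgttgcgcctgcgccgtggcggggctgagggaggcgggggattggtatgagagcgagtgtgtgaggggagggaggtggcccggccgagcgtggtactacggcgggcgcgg
Itpr2 (chr6:146502224-146502473, minus strand, 250 bases): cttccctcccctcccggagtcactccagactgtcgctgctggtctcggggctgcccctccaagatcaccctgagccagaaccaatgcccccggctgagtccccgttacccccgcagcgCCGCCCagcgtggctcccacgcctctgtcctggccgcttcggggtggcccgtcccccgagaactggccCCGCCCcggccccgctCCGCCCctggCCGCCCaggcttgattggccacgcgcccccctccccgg
Cacna2d3 (chr14:29721865-29722114, minus strand, 250 bases): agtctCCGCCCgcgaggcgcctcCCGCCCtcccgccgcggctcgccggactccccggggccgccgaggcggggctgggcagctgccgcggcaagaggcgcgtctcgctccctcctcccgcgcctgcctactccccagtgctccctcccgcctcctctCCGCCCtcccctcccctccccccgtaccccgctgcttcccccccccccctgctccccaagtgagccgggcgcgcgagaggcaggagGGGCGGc

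These windows held 2 GC boxes in Stim2, 4 in Itpr2 and 4 in Cacna2d3, and their GC content was 73.5%, 74.4% and 80%, against a median of 52.4% over all promoter windows. Over the 250 bases before the start in the 32851 windows of the same table, a GC box occurred in 32.7%, and among members it occurred in 26 of 42 windows, which belonged to 31 of the 39 genes. No printed window held a cyclic-AMP response element (TGACGTCA, in 1.55% of all windows), a TATA box (TATAAA, 12.4%) or an E-box (CACGTG, 6.02%), with both strands searched. Among the 42 member windows, 0 held the response element, 1 the TATA box and 2 the E-box. Both the gene that rose and those that fell thus had GC boxes here, and a match of letters does not show that a factor binds.

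High-voltage pore subunits form the channels that open with strong depolarisation, and none of the 7 passed in either age comparison. Compared per kb of exon span in P21 WT mice, Cacna1a, the pore of P/Q-type channels, was highest at 740.2 normalized counts per kb, followed by Cacna1b (N-type) at 429 and Cacna1e (R-type) at 419. Per kb of the longest protein-coding transcript Cacna1a was also highest, at 1066, but Cacna1e, at 709, lay above Cacna1b, at 438. The L-type genes Cacna1d and Cacna1c stood at 190.4 and 167. The L-type genes best known from skeletal muscle and retina, Cacna1s at 4.85 and Cacna1f at 1.71, had the lowest levels of the role. Cacna1f was tested in each comparison except KO against WT at P70, where its mean was under 10. Cacna1a was measured at 9158, 9464, 7755, 9142 and 6741 normalized counts in P21 WT mice 1 to 5 and at 8109, 8189.8, 7127, 9398 and 8454 in P21 KO mice 1 to 5. At P70, Cacna1a had values of 7582, 8400.4, 8676, 8627 and 8787 in WT mice 1 to 5 and 7305, 7342, 7428, 8410.1 and 8785 in KO mice 1 to 5. The ranges of all 4 groups overlapped, and the estimate for age was 0.0033 in WT (95% interval -0.19 to 0.20) and -0.071 in KO mice (-0.25 to 0.11) on the log2 scale. Without P70 mouse 5 the WT estimate was -0.013.

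Cacna1d, which carries L-type current near resting potentials, came nearest to the threshold among the pores. Cacna1d had 2481, 2742, 2084, 2582 and 2127 normalized counts in P21 WT mice 1 to 5 and 2242, 2074, 1677, 2507 and 2392 in the KO mice of that age. Cacna1d values at P70 were 1866, 2115, 2010.2, 2037 and 1829 in WT mice 1 to 5 and 2332, 1882, 2187, 2009.9 and 1816 in KO mice 1 to 5. In WT mice only P70 mouse 2 reached into the P21 range, whereas in KO mice the ages overlapped widely. The P70 minus P21 estimate was -0.28 in WT (SE 0.085, adjusted p = 0.0565 by limma with Benjamini-Hochberg adjustment) and -0.083 in KO mice (adjusted p = 0.718). Without P70 WT mouse 5 it passed in WT mice, at -0.25 (adjusted p = 0.0498). Of the other high-voltage pores, Cacna1b, Cacna1c and Cacna1e had estimates of 0.0065, -0.037 and -0.12 in WT and -0.17, -0.063 and -0.17 in KO mice. Without P70 mouse 5 they were 0.12, 0.048 and -0.015 in WT and -0.096, 0.079 and -0.022 in KO mice, so the sign for Cacna1c turned in both genotypes. The intervals of Cacna1f and Cacna1s, at means of 15.5 and 31.8 normalized counts in P21 WT mice, ran from -2.21 to 0.25 and from -1.05 to 0.72 in WT mice.

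The 3 low-voltage (T-type) pores, which open near rest and support burst firing in thalamus and elsewhere, all had estimates above 0 in both genotypes, and none passed. Cacna1g was measured at 5243, 6146, 5326, 6069 and 4584 normalized counts in P21 WT mice 1 to 5 and at 5241, 5018, 4552, 6083 and 5287 in P21 KO mice 1 to 5. At P70, Cacna1g had values of 5546, 5861, 5458, 5509 and 6073 in WT mice 1 to 5 and 5813, 4989.9, 5481, 5618 and 6509 in KO mice 1 to 5. These values overlapped between ages and between genotypes, with mouse 5 the lowest of P21 WT and the highest of both P70 groups. Cacna1g, at 540 per kb the highest of the role in P21 WT mice, had an estimate of 0.063 (95% interval -0.11 to 0.24) in WT and 0.12 (-0.072 to 0.31) in KO mice. For Cacna1i, at 369.5 per kb, the estimates were 0.16 and 0.17, and for Cacna1h, at 231, they were 0.15 and 0.19.

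Among alpha2delta subunits, which carry the pore to the cell surface, Cacna2d3 fell with age in both genotypes. Cacna2d3 had 3197, 3277, 3139, 3327 and 3067 normalized counts in P21 WT mice 1 to 5 and 2967, 3099, 2984, 3151 and 2964 in the KO mice of that age. Cacna2d3 values at P70 were 2490.5, 2443, 2490.1, 2711 and 2609 in WT mice 1 to 5 and 2375, 2332, 2509.7, 2671 and 2607 in KO mice 1 to 5. Every P70 value lay below every P21 value of the same genotype. The change was -0.33 in WT (SE 0.057, adjusted p = 0.003, limma with Benjamini-Hochberg adjustment) and -0.28 in KO mice (SE 0.0593, adjusted p = 0.012). P70 mice 5 were not the low mice for this gene, and without them the changes were -0.34 (adjusted p = 0.000631) in WT and -0.30 (adjusted p = 0.00105) in KO mice. When a trend over length was subtracted from each mouse, the KO change was -0.26 and no longer passed (adjusted p = 0.0534). The KO call was also lost with the replicate number as a block (adjusted p = 0.0529, limma) and with both together (adjusted p = 0.0992). Cacna2d3 lies on chromosome 14, 28904943 to 29721864, minus strand (GRCm38).

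Cacna2d1, a gabapentin receptor, had the highest level of the role per kb of exon span, at 429 in P21 WT mice against 374 for Cacna2d2, 367 for Cacna2d3 and 16.2 for Cacna2d4. That order depends on the length used, since per kb of the longest protein-coding transcript Cacna2d3 was highest, at 866 against 717 for Cacna2d1. Cacna2d1 was measured at 5701, 5180, 4958, 5742 and 5081 normalized counts in P21 WT mice 1 to 5 and at 5160, 4985, 4223, 5660.3 and 5400 in P21 KO mice 1 to 5. At P70, Cacna2d1 had values of 4975, 5627, 5283, 5612 and 3198 in WT mice 1 to 5 and 5989, 5191, 5164, 5051 and 2662 in KO mice 1 to 5. Mouse 5 was far below the other 4 mice in both P70 groups, and the remaining P70 values overlapped those of P21. The estimates were -0.14 in WT and -0.12 in KO mice, and 0.012 and 0.076 without mouse 5, so their sign rested on that mouse. Cacna2d4, a form known from the retina, had larger estimates at a low level, -0.61 in WT (adjusted p = 0.0837, limma) and -0.70 in KO mice (adjusted p = 0.0529), with means of 153 at P21 and 104 at P70 in WT. It passed in KO mice without P70 mouse 5, at -0.80 (adjusted p = 0.0107). Cacna2d2 had estimates of -0.030 and -0.035, with neither past the threshold.

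Beta subunits bind the pore from the cytosol, and Cacnb3, the highest of the 4 at 1135 per kb in P21 WT mice, rose with age in KO mice. Cacnb3 had 4651, 4464, 4658, 4341 and 4648 normalized counts in P21 WT mice 1 to 5 and 4574, 4589, 4581, 4163 and 4523 in the KO mice of that age. Cacnb3 values at P70 were 5656, 5020.2, 4573, 5116 and 6631 in WT mice 1 to 5 and 5308, 5169.8, 5451, 5128 and 6989 in KO mice 1 to 5. All P70 KO values lay above the P21 KO values, with mouse 5 highest, and in WT mice only P70 mouse 3 fell into the P21 range. The change was 0.31 in KO (SE 0.085, adjusted p = 0.0409, limma with Benjamini-Hochberg adjustment) and the WT estimate was 0.23 (SE 0.0869, adjusted p = 0.112). The difference between genotypes in the age estimate was 0.078 (SE 0.124, unadjusted p = 0.534 in the limma interaction), and 0 was within its 95% interval of -0.18 to 0.34. With single mice left out, the KO call held without P70 mouse 2 or 5 (adjusted p = 0.0493 and 0.00231, limma) and was lost without any other mouse (adjusted p between 0.0515 and 0.109). In WT mice it passed only without P70 mouse 3 (adjusted p = 0.0492).

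Cacnb1, the form of skeletal muscle and brain, had P70 values above all P21 values in both genotypes, with means of 2992 and 3436 normalized counts in WT and 2969 and 3578 in KO mice, yet its adjusted p was 0.102 and 0.0983 (limma). P70 mouse 5 was the highest in both groups, at 3957 and 4534, and without it the KO estimate passed, at 0.17 (adjusted p = 0.0121). Cacnb4, a beta subunit abundant in cerebellum, had means between 6433 and 7077 normalized counts, and its estimate was 0.063 in WT and -0.16 in KO mice. P70 mice 5 held 4128 and 2807, against at least 6886 and 6246 in the others, and without them the estimates were 0.25 (adjusted p = 0.0355) in WT and 0.12 (adjusted p = 0.389) in KO mice. Cacnb2, the lowest beta subunit at 121 per kb, had estimates of -0.15 and -0.078.

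IP3 receptors release calcium from the ER in response to receptor signalling. Itpr2 fell with age in both genotypes, and Itpr1 rose with age in WT mice. Itpr1, the form that Purkinje cells hold at very high levels, made up 91.1% ± 0.808 of the summed level per kb of the 3 genes in P21 WT mice (SD, n = 5) and 94.3% ± 0.942 in P70 WT mice. The share of Itpr2 was 6.25% ± 0.648 and 3.29% ± 0.357 in WT and 6.49% ± 0.59 and 3.03% ± 0.661 in KO mice, and these shares did not overlap between ages in either genotype.

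Itpr2 was measured at 1071, 1293, 894, 1178 and 1084 normalized counts in P21 WT mice 1 to 5 and at 1311, 1153, 1072, 1376 and 1236 in P21 KO mice 1 to 5. At P70, Itpr2 had values of 755, 769, 850, 810.5 and 656 in WT mice 1 to 5 and 687, 715, 724, 713 and 583 in KO mice 1 to 5. No P70 mouse reached the lowest P21 mouse of its genotype, and mouse 5 was the lowest of both P70 groups. Itpr2 fell by 0.52 on the log2 scale in WT (SE 0.102, adjusted p = 0.00679, limma with Benjamini-Hochberg adjustment) and by 0.84 in KO mice (SE 0.089, adjusted p = 0.000168). Without mouse 5 the changes were -0.46 (adjusted p = 0.00484) and -0.79 (adjusted p = 1.73e-05), and both calls held with each mouse left out in turn. Markers of oligodendrocytes moved in the same direction: 6 of 6 fell in both genotypes, with median changes of -1.12 in WT and -1.28 in KO mice, and their summed level, in normalized counts, was 379578 to 428153 at P21 and 160160 to 183859 at P70 in WT and 379118 to 558363 and 144591 to 191620 in KO mice. Oligodendrocyte precursor markers fell for 4 of 5 genes in each genotype, with sums of 12442 to 14247 and 7051 to 8581 in WT and 11780.4 to 15618 and 7146 to 7722 in KO mice. Of the 6 astrocyte markers 0 passed, with sums of 74615 to 88995 and 74957 to 95138 in WT and 82219.8 to 91507 and 63515 to 99803 in KO mice, and none of the markers of these 3 cell types was at 0. What part these cells had in the fall of Itpr2 or of the other members was not tested. Itpr2 lies on chromosome 6, 146108299 to 146502223, minus strand (GRCm38).

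Itpr1 had 22069, 20719, 15624, 19765 and 21972 normalized counts in P21 WT mice 1 to 5 and 22448, 22156, 17658, 21172 and 23826 in the KO mice of that age. Itpr1 values at P70 were 28483, 32345, 29736, 27692 and 20036 in WT mice 1 to 5 and 29746, 31757, 28675, 31560.1 and 15777 in KO mice 1 to 5. In the P70 groups mouse 5 was the lowest by far, and it was the only P70 mouse within the P21 range of WT or below that of KO. Itpr1 rose by 0.46 in WT mice (SE 0.124, adjusted p = 0.0345, limma with Benjamini-Hochberg adjustment), and its estimate in KO mice was 0.32 (SE 0.172, adjusted p = 0.297). Without mouse 5 it was 0.57 (adjusted p = 0.00136) in WT and 0.51 (adjusted p = 0.000489) in KO mice. A difference between genotypes in the age estimate of Itpr1 was not shown, at -0.14 (SE 0.229, unadjusted p = 0.556 in the limma interaction). The WT call held without P21 mouse 1 or 5 or P70 mouse 5, and was lost without any other single mouse, at adjusted p between 0.0631 and 0.0884 (limma). The 6 Purkinje cell markers had median changes of 0.088 in WT and -0.046 in KO mice, with summed levels of 20018 to 21644 and 17490.5 to 20906 in WT and 20717 to 23219 and 17923 to 20091 in KO mice at P21 and P70, and Calb1 passed in KO mice, where it fell. Their part in the Itpr1 values was not tested. Itpr3, the least abundant IP3 receptor at 31.3 per kb, had estimates of 0.27 and 0.42 with adjusted p of 0.108 and 0.219 (limma).

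Ryanodine receptors open on a rise in cytosolic calcium and amplify it, and none of the 3 passed with all mice. Ryr2, the form of heart and brain, was highest at 228 per kb in P21 WT mice, ahead of Ryr3 at 114 and Ryr1, the skeletal muscle form, at 57.2. Ryr2 was measured at 7150.5, 7178, 4975, 7070.2 and 6459 normalized counts in P21 WT mice 1 to 5 and at 6969, 6573, 5172, 7152 and 7527 in P21 KO mice 1 to 5. At P70, Ryr2 had values of 7352, 8696, 8192, 8412 and 5252 in WT mice 1 to 5 and 8556, 7410.3, 7419.9, 8176 and 4399.8 in KO mice 1 to 5. The lowest mice were number 3 at P21 and number 5 at P70 in both genotypes, and of the other 4 P70 mice all were above the P21 range in WT and 2 in KO mice. The estimate was 0.20 in WT (95% interval -0.098 to 0.49) and 0.082 in KO mice (-0.28 to 0.44), and without P70 mouse 5 it was 0.32 (adjusted p = 0.0402) and 0.25 (adjusted p = 0.078) (limma). Ryr1 and Ryr3 had estimates of 0.068 and 0.048 in WT and 0.0095 and -0.10 in KO mice.

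The ER pump Atp2a2 (SERCA2), which refills the store in most cells, had the highest level per kb of all 39 genes, at 4641 in P21 WT mice, and made up 92.4% ± 0.598 of the level of its family. Atp2a2 had 28699.6, 29297, 26137, 29657 and 27329 normalized counts in P21 WT mice 1 to 5 and 28293, 27339.7, 23772, 31210 and 29119 in the KO mice of that age. Atp2a2 values at P70 were 27403, 29294, 29159.8, 29626 and 20002 in WT mice 1 to 5 and 29603, 28638, 27614, 29544 and 18401 in KO mice 1 to 5. Mouse 5 was far below the others in both P70 groups, and the remaining values overlapped between ages. The estimate was -0.072 in WT (95% interval -0.29 to 0.14) and -0.079 in KO mice (-0.35 to 0.20), and 0.034 and 0.051 without mouse 5. Atp2a3, known from Purkinje cells among neurons, stood at 374 per kb and had estimates of -0.17 and -0.22, and it passed in KO mice without mouse 5, at -0.27 (adjusted p = 0.0173) (limma). Atp2a1, the pump of fast skeletal muscle, was at 9.66 per kb and is described with the genotypes.

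Plasma-membrane pumps expel calcium from the cell, and Atp2b2, the isoform of Purkinje cells and hair cells, rose with age in WT mice. Atp2b2 was measured at 20036, 19959, 16026, 19034 and 20039 normalized counts in P21 WT mice 1 to 5 and at 19819, 19373, 16423, 22024 and 20691 in P21 KO mice 1 to 5. At P70, Atp2b2 had values of 22885, 23458, 24493, 24783 and 19813 in WT mice 1 to 5 and 23977, 22526, 21806, 24349 and 19063 in KO mice 1 to 5. P70 mouse 5 was the lowest of its group in both genotypes and was the only WT mouse of P70 within the P21 range. The change was 0.28 in WT (SE 0.0806, adjusted p = 0.0443, limma with Benjamini-Hochberg adjustment) and 0.19 in KO mice (SE 0.0893, adjusted p = 0.242). Without mouse 5 it was 0.33 (adjusted p = 0.00478) in WT and 0.24 (adjusted p = 0.0328) in KO mice. A difference between genotypes in the age estimate of Atp2b2 was not shown, at -0.095 (SE 0.123, unadjusted p = 0.449 in the limma interaction). Leaving out any other single WT mouse ended the WT call, with adjusted p between 0.0614 and 0.0986 (limma).

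As a share of the summed level per kb of the 4 pumps, Atp2b2 held 37.5% ± 0.834 at P21 and 43.4% ± 2.01 at P70 in WT and 38.5% ± 0.194 and 43.8% ± 3.39 in KO mice (SD, n = 5), with no overlap between ages. Atp2b3, a neuronal isoform, held 22.8% ± 1.23 and 19.5% ± 1.01 in WT mice. Per kb, Atp2b2 was highest in P21 WT mice at 1508, ahead of Atp2b1, the most widespread isoform, at 1092, whereas per kb of the longest protein-coding transcript Atp2b1 was, at 2330.1 against 2142. Atp2b1, Atp2b3 and Atp2b4 had estimates of -0.068, -0.16 and 0.043 in WT and -0.063, -0.26 and -0.034 in KO mice, and none passed in either. Without P70 mouse 5 the signs turned for Atp2b1 in both genotypes and for Atp2b4 in KO mice, with 0.067, -0.10 and 0.16 in WT and 0.13, -0.20 and 0.14 in KO mice.

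Sodium/calcium exchangers use the sodium gradient to export calcium after large rises, and Slc8a2 (NCX2), at 1819 per kb, made up 75.2% ± 1.62 of the family in P21 WT mice. Slc8a2 had 9871, 10025, 9053, 9585 and 9312 normalized counts in P21 WT mice 1 to 5 and 9372, 9728, 8588, 10218 and 10026 in the KO mice of that age. Slc8a2 values at P70 were 8019, 8361, 8909, 9019 and 7848 in WT mice 1 to 5 and 8418, 7699, 8831, 8158 and 8254 in KO mice 1 to 5. The ages did not overlap in WT mice, and in KO mice P21 mouse 3 alone lay within the P70 range. The estimate was -0.18 in WT (SE 0.0602, adjusted p = 0.0743, limma) and -0.21 in KO mice (SE 0.064, adjusted p = 0.0631), and without P70 mouse 5 it passed in both, at -0.16 (adjusted p = 0.0462) and -0.21 (adjusted p = 0.0194). Slc8a1, the cardiac form that brain also makes, had estimates of -0.14 and -0.23, or 0.046 and 0.027 without mouse 5, whose departure was the lowest of the well expressed members in WT. Slc8a3 was close to level between ages, at -0.0050 (95% interval -0.16 to 0.15) and -0.0068 (-0.16 to 0.15).

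Of the store-operated genes, Stim2 rose in both genotypes. Stim2 was measured at 1236, 1120.5, 1273, 1157 and 1312 normalized counts in P21 WT mice 1 to 5 and at 1231, 1234, 1281, 1156 and 1372 in P21 KO mice 1 to 5. At P70, Stim2 had values of 1796, 1622, 1579.6, 1755 and 1486 in WT mice 1 to 5 and 1691, 1924, 1839, 1839.8 and 1482 in KO mice 1 to 5. All P70 values lay above all P21 values of the same genotype, although mouse 5 was the lowest of both P70 groups. The change was 0.43 in WT (SE 0.0741, adjusted p = 0.00283, limma with Benjamini-Hochberg adjustment) and 0.48 in KO mice (SE 0.0815, adjusted p = 0.0035), and it held with each mouse left out in turn. Stim1, the other ER sensor, had estimates of -0.035 and -0.11, with neither past the threshold. The share of Stim2 went from 46.9% ± 2.93 to 54.9% ± 3.26 of the summed level per kb of both sensors in WT mice (SD, n = 5) and from 47% ± 2.55 to 57.1% ± 3.63 in KO mice. Which sensor was higher depends on the length used. Per kb of the longest protein-coding transcript, Stim1 lay above Stim2 in WT mice at both ages, at 640 against 247 at P21 and 625 against 334 at P70. Stim2 lies on chromosome 5, 53998499 to 54121057, plus strand (GRCm38).

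Orai2 was the highest store-operated channel gene per kb, at 421 in P21 WT mice, against 195 for Orai3 and 85.9 for Orai1. Orai2 had 2614, 2467, 2299, 2554 and 2849.8 normalized counts in P21 WT mice 1 to 5 and 2598, 2725, 2571, 2574 and 2731 in the KO mice of that age. Orai2 values at P70 were 2135, 2408, 2472, 2346 and 2446 in WT mice 1 to 5 and 2332, 2231, 2150.2, 2002 and 2559 in KO mice 1 to 5. In KO mice all P70 values were below all P21 values, and in WT mice the ages overlapped. The estimate was -0.11 in WT (adjusted p = 0.358, limma) and -0.23 in KO mice (adjusted p = 0.0644), and the KO estimate passed without P70 mouse 5, at -0.28 (adjusted p = 0.00204). Orai1, the founding channel of the family, and Orai3 had estimates of -0.19 and 0.070 in WT and -0.0070 and 0.070 in KO mice, and without P70 mouse 5 that of Orai3 in WT was -0.024.

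**Figure D4:**
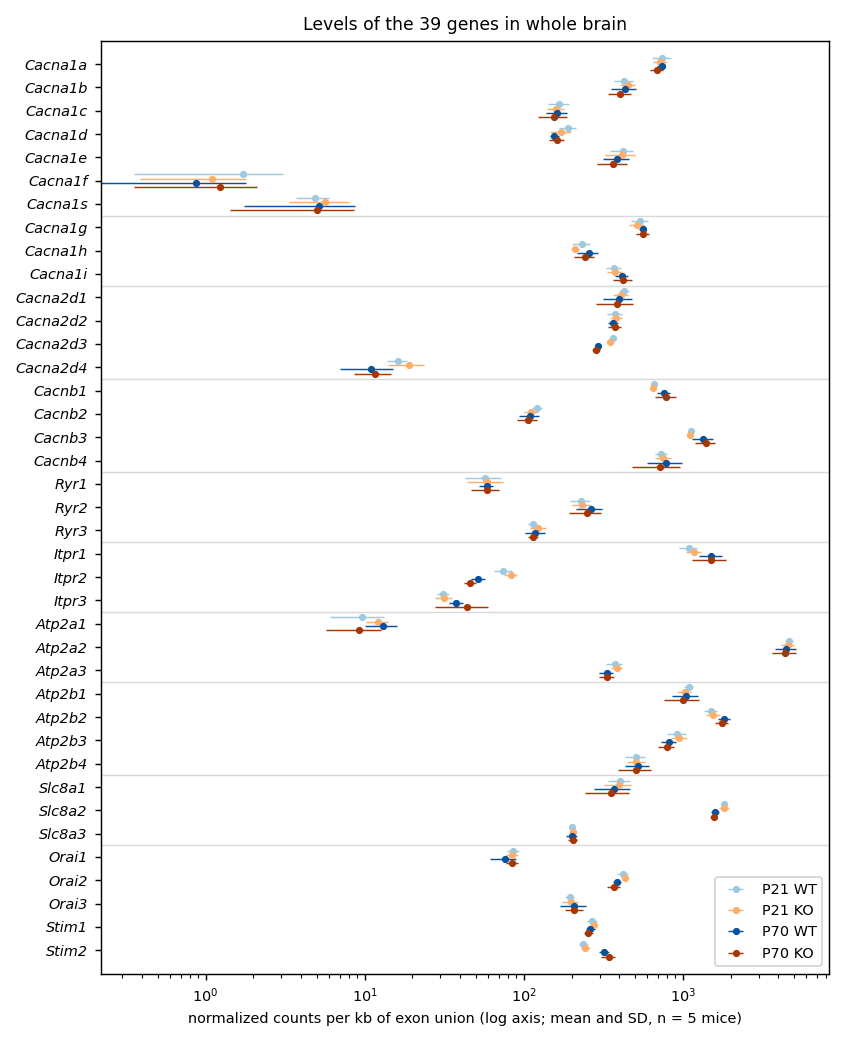
Mean normalized counts per kb of exon span (horizontal log axis) with SD (n = 5 mice) for the 39 genes in the 4 groups, grouped by role. Levels span from 0.872 for Cacna1f in P70 WT to 4641 for Atp2a2 in P21 WT mice, and the 4 groups of a gene lie close together beside the distances between genes.

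The WT and KO age comparisons share no mice. The estimates had the same direction in 32 of 39 members (82.05%), with Pearson's r of 0.571 and Spearman's rho of 0.659 across genes, beside 80.02% and 0.72 for Pearson's r over the 17437 genes tested in both. Genes are not independent replicates, and mouse 5 departed alike in both P70 groups. Without the P70 mice 5, 34 of 39 had the same direction (87.18%).

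No member differed between Katnal2-KO and WT mice at either age by limma with Benjamini-Hochberg adjustment. At P21, 0 of 39 members passed, as did 0 of all 17610 genes (0%), and with an unadjusted p under 0.05 there were 0 members against 2.44% of genes. At P70, 0 of 38 members and 0 of 17613 genes (0%) passed, and 0 members against 1.13% of genes had an unadjusted p under 0.05. Katnal2, the targeted gene, was thus among the genes that did not pass at either age, although its P21 values did not overlap. The absence of calls therefore does not show that no gene differed between genotypes. The KO and WT values overlapped for each member tested at both ages, while 0.46% of genes at P21 and 0.193% at P70 did not overlap. The median KO minus WT difference of the members was 0.021 at P21 and -0.037 at P70, against 0.0042 and -0.0047 over all genes, with a median SE of 0.0856 and 0.124. Without the P70 mice 5, 0 members passed at P70, beside 0.00567% of all genes.

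The smallest p at P21 belonged to Cacna2d3, whose values are given above: all 5 KO values were below the WT median and 3 were below the lowest WT value, and the difference was -0.078 on the log2 scale (95% interval -0.16 to 0.0089, limma p = 0.0747 unadjusted and 1 adjusted, exact two-sided permutation p = 0.0397). Itpr2 followed at P21 with 0.16 (interval -0.042 to 0.36, exact permutation p = 0.182) and was -0.17 at P70 (-0.37 to 0.039, exact permutation p = 0.0952). For Cacna1a at P70 the difference was -0.10 (-0.26 to 0.061, exact permutation p = 0.135). None of these passed after adjustment over all genes, and 5 against 5 mice allow an exact p no smaller than 0.00794.

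Atp2a1 was measured at 26.9, 31.2, 39.6, 51.6 and 18.5 normalized counts in P21 WT mice 1 to 5 and at 34.4, 51.2, 45.3, 41.7 and 38.3 in P21 KO mice 1 to 5. At P70, Atp2a1 had values of 52.8, 46, 37.7, 32.2 and 57.8 in WT mice 1 to 5 and 31.2, 44.8, 21.5, 18.6 and 43.6 in KO mice 1 to 5. At P21 the KO values lay mostly above the WT values and at P70 mostly below, with overlap at both ages. The KO minus WT difference of Atp2a1 was 0.39 at P21 (SE 0.238, exact two-sided permutation p = 0.191) and -0.54 at P70 (SE 0.274, exact permutation p = 0.103). The 4 skeletal muscle markers listed in the table summed to 140 to 202 in P21 WT, 152 to 206 in P21 KO, 126 to 184 in P70 WT and 144 to 255 normalized counts in P70 KO mice, with none at 0 in a group. The part of muscle RNA in these values was not tested.

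For the age by genotype interaction, 0 of 39 members and 0 of 17637 genes (0%) passed, and 2 members against 1.68% of genes had an unadjusted p under 0.05. Those were Atp2a1 and Itpr2. For Atp2a1 the KO age difference minus the WT age difference was -0.93 (SE 0.374, limma adjusted p = 1, unadjusted p = 0.0215). For Itpr2 it was -0.33 (SE 0.136, limma adjusted p = 1, unadjusted p = 0.0267). Cacna1d came next, at 0.20 (SE 0.143, limma adjusted p = 1, unadjusted p = 0.185). That the fall of Itpr2 differed between genotypes was thus not shown after adjustment. The median SE over members was 0.155 on the log2 scale, which sets the size of difference that could be seen.

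**Figure D5:**
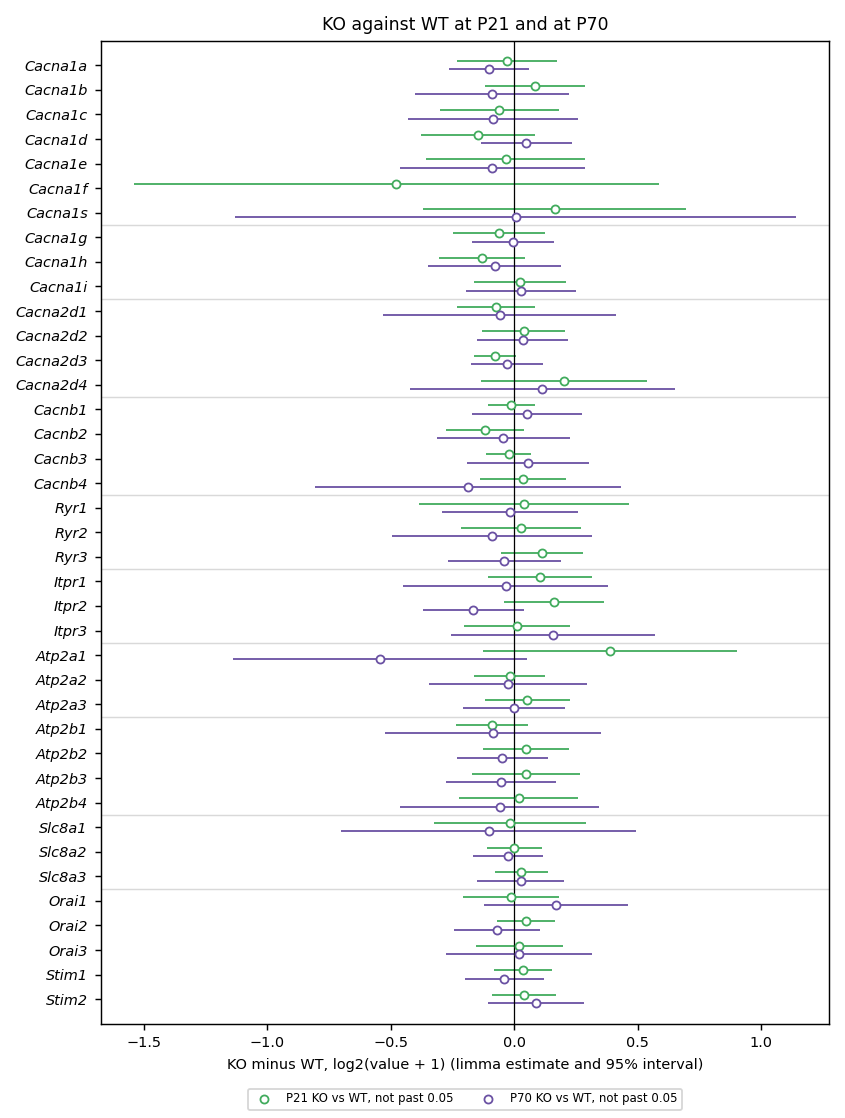
KO minus WT difference of each member at P21 (green) and P70 (purple) on the log2(value + 1) scale (horizontal axis, limma estimate with its 95% interval). No member passed an adjusted p of 0.05; the intervals of Atp2a1, from -0.13 to 0.90 at P21 and from -1.14 to 0.053 at P70, reach across 0, as do those of all members shown.

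Other genes of calcium handling, in lists chosen together with the members, also held genes that changed with age. For KO against WT, 0 of all genes tested passed at either age, so the 0 in each list says nothing particular to these genes. The counts below are to be read beside the 9.32% of all genes that passed with age in WT and the 8.32% in KO mice. Among 18 cytosolic buffers and sensors, 3 higher and 1 lower passed in WT and 1 higher and 2 lower in KO mice. Ncs1, a sensor of presynaptic calcium, rose in both (log2 fold change 0.37, SE 0.0721, adjusted p = 0.0065 in WT by limma, 0.34 in KO), and Calb2, the buffer calretinin, fell in both (log2 fold change -0.41, SE 0.0811, adjusted p = 0.00705 in WT, -0.38 in KO). Of 16 calmodulin genes and calmodulin-dependent enzymes, 2 higher and 0 lower passed in each genotype. Camkk1, a kinase that activates other calmodulin-dependent kinases, rose in both (log2 fold change 0.59, SE 0.077, adjusted p = 0.000432 in WT by limma, 0.55 in KO).

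Of 26 genes of ER calcium handling, 2 higher and 3 lower passed in WT (Casq1 and Jph3 up, Calu, Tmem38a and Fkbp1b down) and 1 higher and 0 lower in KO mice (Hspa5). The 7 gamma subunits gave 0 higher and 0 lower in WT and 2 higher and 0 lower in KO mice, where Cacng2 and Cacng8, which also traffic AMPA receptors, rose by 0.21 and 0.21. Their WT estimates were 0.20 (adjusted p = 0.0532) and 0.23 (adjusted p = 0.0848, limma). Among 12 genes of mitochondrial uptake, 0 higher and 0 lower passed in WT and 1 higher and 0 lower in KO mice (Slc8b1). The 6 other exchangers and pumps that were tested gave 0 higher and 1 lower in each genotype, Slc24a3 in both, and 18 other calcium-permeable channels gave 1 higher and 0 lower in WT (Trpc6) and 0 higher and 0 lower in KO mice. The medians of these 7 lists lay between -0.036 and 0.061 in WT and between -0.14 and 0.058 in KO mice, beside 0.0015 and -0.010 over all genes.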

How the data were processed

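Whole-brain RNA (poly-A selected, TruSeq, paired-end) was sequenced from 20 mice. Reads were quantified by the authors with Salmon 1.1.0 (GRCm38, correcting for GC bias), summed to genes by tximport and normalized in DESeq2 1.26.0 under R 3.6.2, as the submitters' processing notes give the versions. The annotation release they used is not given in the sources used here. The table the authors deposited holds, as signal, such normalized counts of 19463 genes, of which 19447 matched a GENCODE M21 symbol. Whole reads could not be recovered from them, so the study's count model was not repeated.

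Here log2(value + 1) was fitted with limma 3.58.1 in R 4.3.3 (lmFit, eBayes with trend) for all genes whose mean reached 10, on the 10 mice of each comparison and on all 20 for the interaction, with Benjamini-Hochberg adjustment over all genes tested and a threshold of 0.05. Fold changes are on that scale and understate changes of low genes. The script was tested on simulated data. Single values were also tested by exact two-sided permutation of 5 against 5 mice (252 relabellings). Levels per kb divide the group mean by the union of annotated exons. Depth was estimated by dividing the sum of values by the most frequent value near 1, taken as the value of 1 read. The estimate is bounded by the window searched, covers counting error only, and is approximate. No 2 libraries of a group held identical values. P-values treat the mice of a group, which the labels give as separate samples, as replicates.

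The 39 members and the lists were chosen with earlier results of these data known. Every member was described in its role. Values of every mouse were given for members past the threshold for age in WT (up to 8, by size of change), for the 3 with the smallest p for KO against WT at each age and for the interaction, and for the member highest per kb in each role; other genes with a value of their own were chosen after their values were seen, beside Katnal2 as the targeted gene. Alternatives were other filters, pseudocounts, normalizations and thresholds, a single fit of all mice, the replicate number as a block, and single mice left out. Leaving out the P21 mice 3, alone or with the P70 mice 5, the length trend (a smooth curve of each mouse's departure on exon length, known for 99.92% of genes, removed before the fit), its combination with the block, and the unadjusted thresholds were added after seeing the data. Leaving out the P70 mice 5 was chosen with earlier results of these data known. Calls seen only without them thus rest on a choice informed by these data. Sequences are from RefSeq (GRCm38.p6), with 24 bases at the 3′ end of the Stim2 window left out because the GENCODE gene begins there.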

Additional observations from a re-analysis of the deposited data

Results flagged for a closer look

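In each group of 5 mice, the highest and the lowest value of each member were examined by Dixon's test. It divides the gap between that value and its nearest neighbour by the range of all 5 values. Of 156 groups of 5 tested, 20 held a mouse past its 95% critical value, where chance gives about 1 in 20, or 8. P70 KO mouse 5 accounted for 10 of them. It was the lowest of its group for Cacna2d1 at 2662 normalized counts, Ryr2 at 4399.8, Itpr1 at 15777, Itpr2 at 583, Atp2a2 at 18401, Atp2b1 at 8753, Atp2b4 at 3745 and Slc8a1 at 3067, and the highest for Cacnb1 at 4534 and Cacnb3 at 6989. P70 WT mouse 5 was the lowest for Cacna2d1 at 3198, Atp2a2 at 20002 and Atp2b1 at 10874. P21 WT mouse 3 was the lowest for Atp2b2 at 16026 and Slc8a1 at 5503, and P21 KO mouse 3 for Cacna2d2 at 2602. The remaining 4 were single values of other mice: Cacna2d2 was low in P70 WT mouse 1 at 2551, Cacnb3 was low in P21 KO mouse 4 at 4163, Itpr3 was high in P70 KO mouse 2 at 652, and Cacna1f was high in P70 WT mouse 2 at 22.5, near the lower limit. The P70 mice 5 and P21 mice 3 are those in which long genes were low and short genes high, and the cause of that was not tested.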

How the results depend on the processing

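For KO against WT and for the interaction, 0 members passed under any adjusted setting run. Over all genes the count was 0 to 1 at P21 with single mice left out (1 without KO mouse 4 or WT mouse 3), 1 without both P21 mice 3 and 1 at P70 without both mice 5; unadjusted, 429, 199 and 296 genes passed, with 2 members in the interaction. For age, leaving out single mice gave 3 to 9 members and 912 to 3000 genes in WT, and 3 to 11 members and 896 to 3759 genes in KO mice. The counts of 9 and 3000, and of 11 and 3759, came without P70 mouse 5 of each genotype; P21 mouse 3 left out as well gave 9 and 2850 in WT and 12 and 3811 in KO. With 3 members in WT, the mice left out were P21 mouse 2 or 4 or P70 mouse 1, 2 or 4; the gene counts of 912 in WT and of 896 in KO came without P21 mouse 4, and in KO 943 and 957 came without P21 mice 1 and 2. A fold change over 1.5 gave 0 and 1 members and 572 and 584 genes in WT and KO, an adjusted p under 0.01 gave 3 and 2 members and 603 and 615 genes, and an unadjusted p under 0.05 gave 11 and 11 members and 4315 and 4008 genes. Without the trend, 3 and 3 members and 1384 and 1294 genes passed in WT and KO, with the length trend subtracted 8 and 6 members and 2236 and 1983 genes, and with all 20 mice in one fit 5 and 8 members and 1965 and 2095 genes. Quantile normalization left 5 and 4 members, but split them 1 higher and 4 lower in WT and 1 and 3 in KO, against 3 and 2, and 2 and 2. Beside them, 1667 genes passed in WT (810 higher, 857 lower) and 1506 in KO mice (712 higher, 794 lower). For these counts the cause was not tested. For the 6 members past the threshold with age in WT or KO mice, and for the 3 with the smallest p in each other comparison, no alternative reversed a direction, whereas without P70 mouse 5 the age estimates of Cacna1c, Cacna2d1, Atp2a2, Atp2b1 and Slc8a1 in both genotypes, of Cacna1a and Orai3 in WT and of Cacnb4 and Atp2b4 in KO mice, none of them past the threshold, changed sign. Among those results, with single mice left out 213 values kept their side of the threshold, 24 lost it and 3 gained it, and under the other alternatives 250, 20 and 6 did. With single mice left out, the losses were those of Itpr1 in WT (7 of 10), Atp2b2 in WT (9 of 10) and Cacnb3 in KO mice (8 of 10). The values that kept their side include those for KO against WT and the interaction, none of which changed side. Levels per kb of the longest protein-coding transcript, in P21 WT mice, were 1066 for Cacna1a, 653 for Cacna1g, 717 for Cacna2d1, 1665 for Cacnb3, 391 for Ryr2, 2029 for Itpr1, 6292 for Atp2a2, 2142 for Atp2b2 and 641 for Orai2, higher because that length is shorter.

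Same-numbered mice are different animals, and their deviations correlated at 0.00511 to 0.256 at P21, 0.0622 to 0.709 at P70, -0.105 to 0.155 across ages in WT and -0.122 to 0.153 in KO mice. The numbers were taken as pairs only if each of the 5 correlations of a comparison was over 0.1, which none met, although 4 of 5 were at P70, and their mean was 0.265. Entered as a block, the replicate number left 3 members and 1265 genes past the threshold with age in WT, 2 members and 913 genes in KO, and 0 members and 0 genes in the genotype comparisons and the interaction. With the length trend and the block together, 7 and 4 members and 1756 and 1380 genes passed in WT and KO mice, and Cacna2d3 was not among those in KO mice under the block, alone or with the trend. Of the 10 mice in a comparison, 5 at P21 and 7 at P70 correlated best with their own number among the 5 mice of the other group. Across ages 4 did in WT and 2 in KO mice. Same-numbered mice of an age may thus share structure, and its source was not tested.

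Depth limits Cacna1f, Cacna1s and Atp2a1, which had the fewest counts. The spread among 5 mice limits the rest: the median SE of a member was 0.0856 to 0.124 on the log2 scale within an age.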

Other observations

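Numbers of marker genes that passed with age, given as higher and lower at P70 first in WT and then in KO mice, were for granule cells (0 higher and 1 lower, then 0 and 4), excitatory neurons (0 and 1, 0 and 0), inhibitory neurons (0 and 0 in both), striatal neurons (1 and 0, 0 and 0), thalamic neurons (0 and 0, 0 and 1), microglia (0 and 0 in both), endothelial cells and pericytes (0 and 1 in both), choroid plexus (2 and 0, 0 and 0), ependymal cells (0 and 0 in both), immature neurons (0 and 3, 0 and 1), pituitary (0 and 0 in both), photoreceptors and pineal (0 and 0 in both) and neurons in general (1 and 0 in both). The genes tested were 6 for granule cells, 6 for inhibitory neurons and 3 for photoreceptors and pineal. For pituitary they were 3 in WT and 4 in KO mice, and for each of the other types named they were 5. Over all genes tested, 9.32% passed with age in WT and 8.32% in KO mice. Of the 4 skeletal muscle markers measured, 0 passed in either genotype. The 2 marker genes of other organs, Alb and Ckm, were not among the genes of the deposited table. For KO against WT, 0 marker genes passed at either age, as did 0 of all genes tested.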
